A study of Danio rerio with 30 samples.

Results

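The newly fertilized zebrafish egg was profiled here by 4 RNA-seq libraries, 1 poly(A)-selected and 1 Ribo-Zero library at 0 h and again at 1 h post-fertilization (hpf), out of 30 libraries in the series. The question was which maternal transcripts poly(A) selection captures poorly or well when total RNA depleted of ribosomal RNA with Ribo-Zero is the measure of what is present. Genes were kept where their mean Ribo-Zero level over 0 and 1 hpf was at least 5 TPM, the share of a gene among all transcripts of a library after correction for gene length, which left 10874 of the 35117 genes listed. All 4 libraries come from wild-type embryos with no treatment, collected in sets of 25, and the sources used here state neither the strain nor whether both protocols used the same embryos. Each protocol and hour has 1 library, so the 2 hours stand in for replicates, and the protocol cannot be told apart from any other difference between the library preparations. The 12 libraries of embryos injected with alpha-amanitin were not used here, and the wild-type libraries of later hours were used only for values side by side.

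A fertilized egg does not transcribe its genome at first and lives on RNA that the mother stored during oogenesis. Many stored mRNAs are kept with a short poly(A) tail in the oocyte, and the tail is lengthened in the cytoplasm when the message is to be translated. Oligo(dT) selection retains RNA by its tail, while depletion of ribosomal RNA retains RNA with or without a tail. Messages of replication-dependent histones end in a stem-loop rather than a tail, and many small RNAs have none.

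The markers were those of an egg. The 10 egg markers summed to 13119 and 14906 TPM in the poly(A) libraries at 0 and 1 hpf, against 4765 and 4693 TPM in the Ribo-Zero libraries. The poly(A) sum was mostly that of h1m, ccnb1 and dazl, while zar1, zp3b, npm2a, npm2b, mos and buc had fewer TPM in poly(A) than in Ribo-Zero at both hours. None of the markers of zygotic transcription, ovarian follicle or liver reached 1 TPM in any of the 4 libraries, and all liver markers were listed at 0. The blood markers summed to at most 3.70 TPM and the sperm and testis markers to at most 3.21 TPM. The libraries are of whole eggs and embryos, and the source of these low levels was not tested. Between 11919 and 11975 genes reached 1 TPM in the poly(A) libraries, against 14050 to 14395 in the Ribo-Zero libraries. Read numbers are unknown, so the counting error of a level cannot be given.

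The poly(A) and Ribo-Zero libraries differed in their whole composition. The difference, log2(TPM + 0.1) in poly(A) minus log2(TPM + 0.1) in Ribo-Zero at the same hour, had a median over the genes tested of -1.67 at 0 hpf and -1.08 at 1 hpf, so that most genes took a smaller share of a poly(A) than of a Ribo-Zero library. The 13 mitochondrially encoded mRNAs took 9.76% and 10.3% of the poly(A) libraries at 0 and 1 hpf, against 1.16% and 1.15% of the Ribo-Zero libraries. At the other end, the 81 loci named Metazoa_SRP, the RNA of the signal recognition particle, took 0.133% and 0.129% of the poly(A) libraries, against 22.3% and 32.4% of the Ribo-Zero libraries. Because of this shift, genes are described below by the relative difference, which is the difference minus the median over the genes tested at that hour. A relative difference of 0 is that of the median gene, and a gene can lie above it and still have fewer TPM in poly(A) than in Ribo-Zero.

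Relative to the median gene, 3303 genes were higher in poly(A) (30.4% of those tested) and 2580 were lower (23.7%) at an adjusted p under 0.05 by limma, with the hour as a factor. On the values as deposited, without that reference, 1455 genes were higher (13.4%) and 6517 lower (59.9%). The shift of the median thus moved the balance of calls. Counts of each list below are to be read beside these shares. With 1 residual degree of freedom the error of each gene was borrowed mostly from the others in the fit relative to the median gene. In the fit as deposited it was borrowed wholly, so a gene's own disagreement between the hours had no weight. The calls relative to the median gene were also counted with each library left out in turn, in fits without the hour term. Without the Ribo-Zero library of 0 hpf or of 1 hpf, 294 and 275 genes were lower and 1895 and 1917 higher, while without the poly(A) library of 0 hpf or of 1 hpf 4350 and 4627 were lower and 4785 and 4032 higher. These fits leave a group with a lone library, which is assumed to vary like the other. Their error comes from the change between hours in the protocol that kept both libraries. The counts therefore do not show by themselves how far the calls rest on a single library.

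A fold rule that uses no test gave a smaller set that both hours share. A relative difference of -2 or lower at both hours, which is at least 4-fold below the median gene on the log2(TPM + 0.1) scale, was found for 307 genes (2.82%), called poorly captured here. A relative difference of 2 or higher at both hours was found for 1543 genes (14.2%), called well captured. Poorly captured genes took 0.423% and 0.280% of the poly(A) libraries at 0 and 1 hpf, against 30.0% and 40.2% of the Ribo-Zero libraries, and well captured genes took 67.0% and 70.0%, against 14.5% and 13.4%. Across the 10874 genes the relative differences at 0 and 1 hpf had a Pearson correlation of 0.871 and a Spearman correlation of 0.869, and 9340 genes (85.9%) lay on the same side of the median gene at both hours. Genes are not independent replicates, and the points share their libraries.

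**Figure D1:**
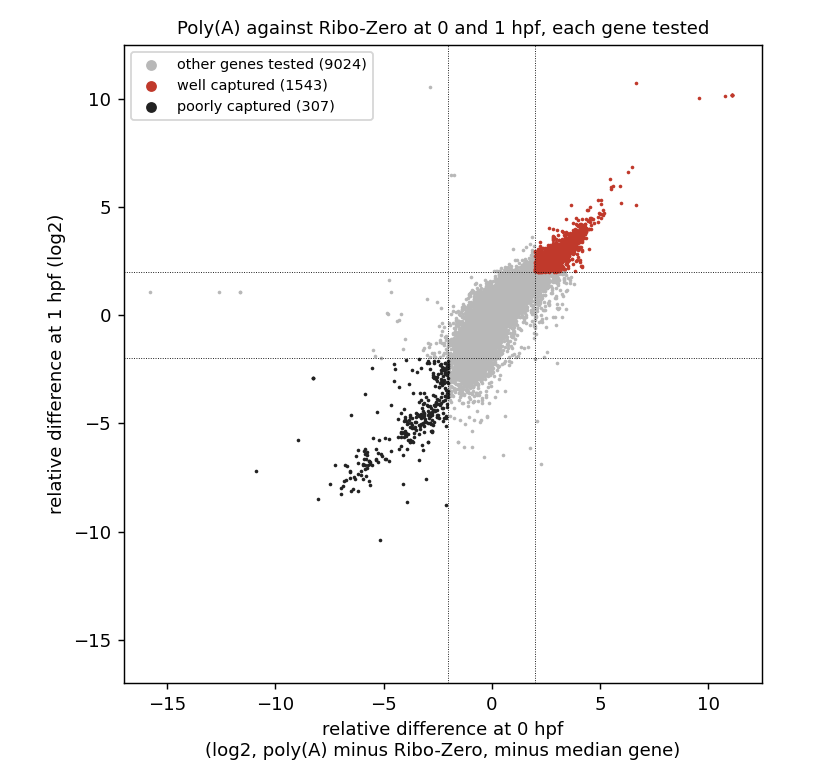
Relative difference of each gene tested at 0 hpf (x axis) and at 1 hpf (y axis), both on the log2 scale as poly(A) minus Ribo-Zero minus the median gene, with dotted lines at -2 and 2. The 1543 well captured genes fill the upper right corner, and the 307 poorly captured genes form a long tail at the lower left.

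The threshold of 5 TPM did not sit at a step in the data. The 230 genes with a mean Ribo-Zero level of 5 to 5.5 TPM had a median relative difference of -0.33 (quartiles -1.09 and 0.53), and the 229 genes of 4.5 to 5 TPM had -0.27 (quartiles -1.08 and 0.54). Genes were also split into quartiles by their level in the Ribo-Zero library of 2 hpf, which took no part in the contrast. The share of well captured genes was 8.35% in the lowest quartile and 22.1% in the highest. Poorly captured genes numbered 55, 35, 24 and 193 of the 2718 or 2719 genes in each quartile, and outside the histone and small RNA lists 51, 31, 20 and 86. The quartile of the most abundant RNAs held the most genes of both kinds. This does not describe the 55 poorly captured mRNAs with a gene name, given below. Their median level in the Ribo-Zero library of 2 hpf was 18.98 TPM, while the highest quartile started at 62.66 TPM. Most of these 55 thus lay outside the highest quartile.

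The lowest relative differences belonged to the RNA of the signal recognition particle. All of the 12 named genes with the lowest values, by the rule given in the methods, were Metazoa_SRP loci, copies of the RNA scaffold of the particle that guides secretory proteins to the endoplasmic reticulum. Of the 81 such loci listed, 67 were tested, and all 67 were lower in poly(A) by limma, 65 of them by the fold rule. The most abundant, ENSDARG00000102504, had 263 and 229 TPM in the poly(A) libraries at 0 and 1 hpf, against 34186 and 47731 TPM in the Ribo-Zero libraries, the highest mean of any locus in Ribo-Zero. The median relative difference of the 67 loci was -6.40, and 6 of them were listed at 0 in both poly(A) libraries. These loci are near-identical copies, and how reads were split among them is uncertain.

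Other small RNAs did not behave alike. SCARNA13, a guide RNA of the Cajal body, had 1.27 and 0 TPM in poly(A), against 65.8 and 84.4 TPM in Ribo-Zero. The RNA rn7sk, which holds an elongation factor inactive in the nucleus, had 1.34 and 0.99 TPM, against 18.9 and 43.8 TPM. By contrast, the spliceosomal RNA U4 had 178 and 134 TPM in poly(A), against 42.2 and 54.9 TPM in Ribo-Zero. The 26 U1 loci tested, of 382 listed, had a median relative difference of -0.01, with 1 called lower and 2 higher. As deposited, 23 of the U1 loci were lower and 0 higher. Their median level was 5.31 TPM in Ribo-Zero, near the filter, and 2.40 TPM in poly(A). Of these loci, 15 share every value with another locus. Their median relative difference was -1.73 at 4 hpf and -3.48 at 8 hpf. The locus 5_8S_rRNA, a ribosomal RNA and hence a target of the depletion, had 2020 and 1620 TPM in poly(A), against 63.1 and 101 TPM in Ribo-Zero. Of the 114 small non-coding loci tested, 79 were lower, 7 higher and 28 not called, but these include the 67 Metazoa_SRP loci, all of them lower. Without the Metazoa_SRP loci, 12 of 47 were lower, 7 higher and 28 not called, beside 23.7% lower and 30.4% higher over all genes tested. The median relative difference of the 47 was -0.005. As deposited, 39 of the 47 were lower and 2 higher, beside 59.9% lower and 13.4% higher over all genes tested. No microRNA locus passed the 5 TPM filter, with 305 listed.

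Histone messages split by class. All 51 genes with the names of replication-dependent histones passed the filter, and 50 of them were both lower by limma and poorly captured by the fold rule, with a median relative difference of -3.49 at 0 hpf and -5.34 at 1 hpf. With any 1 library left out, 49 to 51 of the 51 were called lower. The most abundant, HIST2H2AB (ENSDARG00000075220), a histone H2A, had 50.8 and 33.5 TPM in the poly(A) libraries at 0 and 1 hpf, against 2177.5 and 2234 TPM in the Ribo-Zero libraries. Both poly(A) values of HIST2H2AB lay far below both Ribo-Zero values. The exception was hist2h2l, with 0.66 and 3.05 TPM against 9.15 and 8.86 TPM (adjusted p = 0.0832, limma). The copies of these genes are near-identical, so the values of single copies are uncertain, and their sum was 0.0780% and 0.0391% of the poly(A) libraries, against 2.57% and 2.78% of the Ribo-Zero libraries.

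Most of the replacement histones, and the linker histone tested, lay on the opposite side. Of the 9 tested, 8 were higher in poly(A) relative to the median gene, 7 of them well captured, and the median relative difference was 3.49. The linker histone of the oocyte, h1m, had 6801 and 8306 TPM in poly(A), against 1693 and 1768 TPM in Ribo-Zero. The H3.3 gene h3f3d had 1790 and 2605 TPM, against 118 and 87.1 TPM, and the H2A.Z-type gene h2afvb had 1286 and 1623 TPM, against 52.7 and 34.5 TPM. For h2afvb the limma relative difference was 6.41 ± 0.27 (SE, adjusted p = 9.57e-10). The only member below the median gene was h2afx, the variant phosphorylated at DNA breaks, with 9.28 and 7.41 TPM in poly(A), against 341 and 488 TPM in Ribo-Zero (limma relative difference -4.27 ± 0.36, SE, adjusted p = 6.46e-07). Both stem-loop binding protein genes, slbp and slbp2, whose products bind the histone stem-loop, were higher relative to the median gene, with 421 and 343 TPM for slbp in poly(A), against 288 and 270 TPM in Ribo-Zero.

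Messages with ordinary gene names were also among the poorly captured genes. Of the 307, 65 were Metazoa_SRP loci, 50 were in the histone list and 121 carried clone or placeholder names. A set of 55 were protein-coding in RefSeq, with a gene name that the files and Ensembl share, directly or as a synonym, and no histone name. A further 58 protein-coding genes outside the histone list did not meet these terms. The set of 55 was drawn up after the values were seen. Their mean relative differences were -2.06 or lower, with a median of -2.70, and mettl10 and rsf1b.1 were listed at 0 in both poly(A) libraries.

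The gene eno3, an enolase of glycolysis, had 15.4 and 17.6 TPM in the poly(A) libraries at 0 and 1 hpf, against 470 and 567 TPM in the Ribo-Zero libraries. The limma relative difference of eno3 was -3.63 ± 0.31 (SE, adjusted p = 6.61e-07). The transcription factor xbp1, which acts in the response to unfolded proteins, had 17.1 and 9.04 TPM, against 294 and 294 TPM, and both poly(A) values lay far below both Ribo-Zero values. The gene exosc4, a subunit of the RNA exosome, had 4.95 and 2.08 TPM, against 107 and 105 TPM. The RNA helicase gene ddx47 had 5.05 and 4.07 TPM, against 89.6 and 88.0 TPM, and rrp7a, a factor of ribosome assembly, had 1.06 and 2.37 TPM, against 53.0 and 47.3 TPM. The purine synthesis gene adsl had 2.93 and 1.67 TPM, against 47.1 and 45.7 TPM. The most abundant of the set was actb1, a cytoplasmic actin, with 80.8 and 65.2 TPM in poly(A), against 1080 and 1185 TPM in Ribo-Zero (limma relative difference -2.62 ± 0.27, SE, adjusted p = 3.01e-06). The gene mettl10, a methyltransferase, was listed at 0 in both poly(A) libraries, against 17.8 and 36.8 TPM in Ribo-Zero, so no fold is given.

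**Figure D2:**
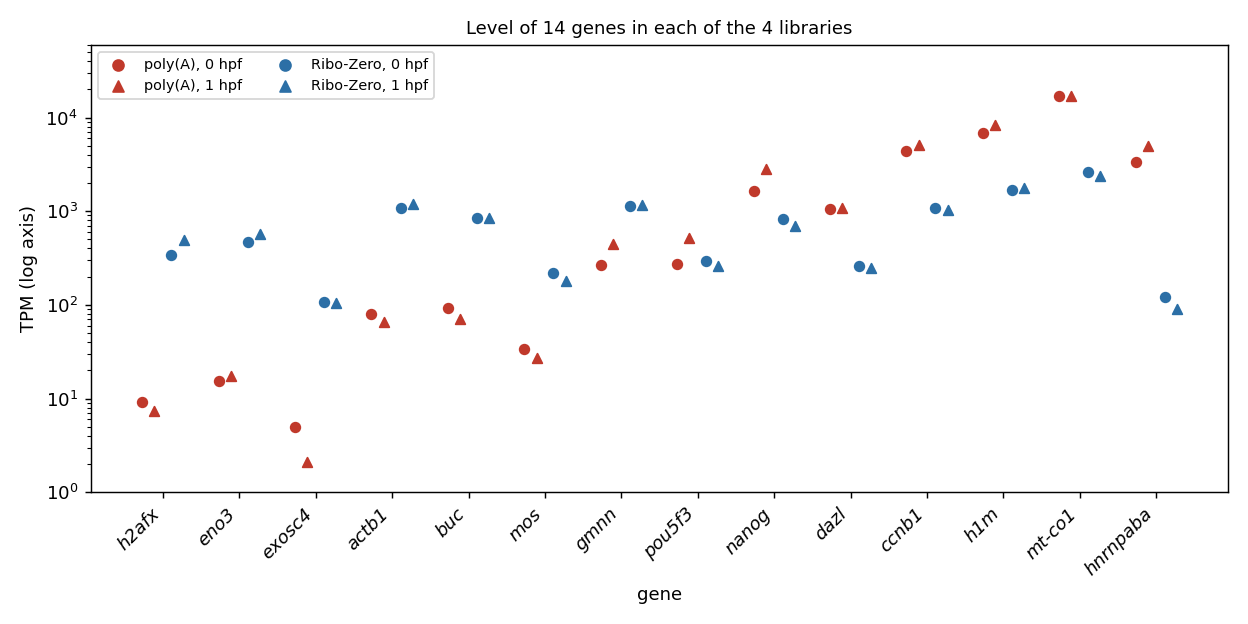
Level in TPM (log axis) of 14 genes in the poly(A) libraries (red) and the Ribo-Zero libraries (blue) at 0 hpf (circles) and 1 hpf (triangles). Both poly(A) points lie below both Ribo-Zero points from h2afx to gmnn, they lie above them from nanog to hnrnpaba, and for pou5f3 they lie on both sides.

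Among the best captured mRNAs were several of RNA-binding proteins. The heterogeneous nuclear ribonucleoprotein (hnRNP) gene hnrnpaba had 3362 and 4939 TPM in the poly(A) libraries at 0 and 1 hpf, against 121 and 91.0 TPM in the Ribo-Zero libraries, and its limma relative difference of 6.61 ± 0.22 (SE, adjusted p = 1.36e-10) was the highest of any gene that the naming rule took. In the same group, hnrnpa1b had 1149 and 1608 TPM, against 80.0 and 56.3 TPM, and hnrnpa1a had 685 and 932 TPM, against 48.6 and 34.3 TPM. The related RNA-binding protein gene taf15 had 811 and 1304 TPM, against 58.7 and 34.5 TPM. In each of these the poly(A) level was higher and the Ribo-Zero level lower at 1 than at 0 hpf. Of 22 hnRNP genes tested, 16 were higher, none was lower and 14 were well captured. Over all genes tested, 30.4% were higher, 23.7% lower and 14.2% well captured. The hnRNP genes were a subset taken by name and not a planned list. They include hnrnpaba, hnrnpa1a and hnrnpa1b, named above for their high values, so the counts are not separate support. The gene hnrnpub, of the hnRNP U kind, had 68.0 and 310 TPM, against 359 and 323 TPM, and was not called. A further named gene of the upper end was rbm4.3, an RNA-binding protein gene with 953 and 1229 TPM, against 91.1 and 64.9 TPM.

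Higher still by relative difference were 6 loci to which no role can be given here. The 6 clone-named loci BX537263.1, BX537263.2, BX548011.1, CT583728.6, CT583728.8 and CT583728.20 held identical values in every library, 21872 and 11993 TPM in poly(A), against 31.5 and 21.9 TPM in Ribo-Zero. Together they took 13.1% and 7.20% of the poly(A) libraries, against 0.0189% and 0.0131% of the Ribo-Zero libraries. The loci AC024175.4 and AC024175.17 are named for their level instead, as they were among the 5 loci with the highest mean level in poly(A). Together they took 9.99% and 2.54% of the poly(A) libraries, against 4.85% and 3.99% of the Ribo-Zero libraries. Their share was thus lower in poly(A) at 1 hpf. In all, 34 of the genes tested shared every value with another locus. A further 5 clone-named loci were listed at 0 in the Ribo-Zero library of 1 hpf, among them CT583728.19, with 17959 TPM at 0 hpf, and so passed the filter on 1 library alone.

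Mitochondrially encoded mRNAs, most of which carry short tails added inside the organelle, all lay above the median gene. All 13 were higher in poly(A) relative to the median gene, and 12 of them were well captured, with a median relative difference of 4.62 over the 13. The ATP synthase gene mt-atp6 had 30670 and 27288 TPM in poly(A), against 1583 and 1598 TPM in Ribo-Zero, and the cytochrome oxidase gene mt-co1 had 16832 and 17088 TPM, against 2624 and 2394 TPM. The exception to the fold rule was mt-nd6, the only 1 of the 13 that is transcribed from the other strand of the mitochondrial genome. It had 763 and 819 TPM in poly(A), against 1140 and 1172 TPM in Ribo-Zero, so it was above the median gene by 0.79 ± 0.18 (limma, SE, adjusted p = 0.0028) while its TPM was lower in poly(A). When either Ribo-Zero library was left out, 12 of the 13 were called.

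Messages of the cytoplasmic ribosome and of the spliceosome were captured well too. Of 83 genes with ribosomal protein names, 78 were higher relative to the median gene, 1 lower and 4 not called, and 51 were well captured, with a median relative difference of 2.56. The large subunit gene rpl12 had 1468 and 2025 TPM in poly(A), against 315 and 366 TPM in Ribo-Zero. The lowest of the genes taken by name, rpl7l1, had 32.5 and 19.6 TPM, against 157 and 162 TPM. Such a name does not by itself make the product part of the ribosome. Of 54 splicing factor genes, 39 were higher, 3 lower and 27 well captured, with a median of 2.07 at 0 hpf and 2.31 at 1 hpf. Among subsets taken by name, 9 of 15 snRNP and U2AF protein genes and 12 of 17 SR protein genes were well captured. Over all genes tested, 14.2% were. The Sm protein gene snrpd3 had 1397 and 1866 TPM in poly(A), against 304 and 311 TPM in Ribo-Zero, and the SR protein gene srsf7a had 1383 and 1565 TPM, against 225 and 177 TPM. The gene sf3b3, a subunit of the U2 particle, by contrast had 12.9 and 25.1 TPM, against 99.6 and 82.2 TPM (lower, adjusted p = 0.034, limma).

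Cell cycle regulators stored for the cleavage divisions lay on both sides of the median gene, with none poorly captured by the fold rule. Of 32 tested, 18 were higher relative to the median gene, 5 lower and 9 not called, and 11 were well captured. Over all genes tested, 30.4% were higher, 23.7% lower and 14.2% well captured. On the values as deposited 13 of the 32 were higher and 13 lower, beside 13.4% and 59.9% over all genes tested. The 32 include cdh1, in zebrafish a cadherin gene, which was called higher. The mitotic cyclin gene ccnb1 had 4389 and 5046 TPM in the poly(A) libraries at 0 and 1 hpf, against 1092 and 1042 TPM in the Ribo-Zero libraries. Likewise, the cyclin gene ccna1 had 1666 and 2820 TPM, against 788 and 820 TPM, and the securin gene pttg1, whose product holds separase inactive until anaphase, had 439 and 591 TPM, against 92.9 and 101 TPM. In the other direction, mos, the kinase that arrests the egg at metaphase of meiosis II, had 33.5 and 27.4 TPM, against 218 and 182 TPM. The inhibitor of the anaphase-promoting complex fbxo5 had 51.5 and 20.7 TPM, against 327 and 294 TPM, and the cyclin-dependent kinase gene cdk1 had relative differences of -0.57 at 0 hpf and -2.26 at 1 hpf. A cyclin and its kinase thus lay on opposite sides of the median gene, since ccnb1 had relative differences of 3.68 and 3.35. The replication inhibitor gmnn had 269 and 445 TPM in poly(A), against 1148 and 1177 TPM in Ribo-Zero, and was not called relative to the median gene (adjusted p = 0.106, limma).

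Germ plasm messages differed from each other in the same way. The organizer of the Balbiani body and germ plasm, buc, had 93.2 and 70.0 TPM in poly(A), against 838 and 843 TPM in Ribo-Zero, and its limma relative difference was -2.04 ± 0.27 (SE, adjusted p = 3.27e-05). The RNA-binding protein gene dazl had 1062 and 1069 TPM, against 260.0 and 248 TPM, the highest relative difference of the 16 germ plasm genes tested, 3.70 at 0 hpf and 3.18 at 1 hpf. Between them lay nanos3, a translational repressor of germ cells, with 29.5 and 88.2 TPM, against 87.6 and 73.2 TPM. The helicase gene ddx4 (vasa) had 64.2 and 130 TPM, against 54.5 and 47.1 TPM. In the list, 6 genes were higher, 2 lower (buc and the Piwi gene piwil2) and 8 not called. Over all genes tested, 30.4% were higher and 23.7% lower. Of the 13 egg coat genes tested, which encode zona pellucida proteins, 7 were higher, 2 lower and 4 not called, with zp3a.2 at 89.9 and 111 TPM, against 30.3 and 27.3 TPM, and zp3c at 13.1 and 12.4 TPM, against 99.5 and 113 TPM.

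Of 21 genes that activate the zygotic genome or set the axes, 11 were higher and 2 lower relative to the median gene. The other 8 were not called. As deposited, 7 were higher and 10 lower. Shares over all genes tested were 30.4% higher and 23.7% lower relative to the median gene, and 13.4% and 59.9% as deposited. The 3 factors that open the zygotic genome in zebrafish were captured unequally. The homeobox gene nanog had 1655 and 2803 TPM in poly(A), against 830 and 699 TPM in Ribo-Zero, and was well captured. The POU factor gene pou5f3 had 276 and 523 TPM, against 295 and 259 TPM, so that its poly(A) value lay below the Ribo-Zero value at 0 hpf and above it at 1 hpf. The SoxB1 gene sox19b had 44.6 and 94.7 TPM, against 322 and 282 TPM, and was lower (adjusted p = 0.0312, limma). The 2 beta-catenin genes differed as well, with 786 and 1090 TPM for ctnnb2 in poly(A), against 241 and 183 TPM in Ribo-Zero, and 67.9 and 244 TPM for ctnnb1, against 170 and 142 TPM.

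The machinery that acts on tails and on mRNA decay had a median relative difference of 0.38, with 30 of 72 genes higher, 14 lower and 28 not called. On the values as deposited, 14 were higher and 36 lower. Over all genes tested, 30.4% were higher and 23.7% lower relative to the median gene, and 13.4% and 59.9% as deposited. The deadenylase subunit gene cnot8 had 895 and 1135 TPM in poly(A), against 214 and 188 TPM in Ribo-Zero, and cpeb1b, which encodes a protein that binds the cytoplasmic polyadenylation element, had 382 and 370 TPM, against 130 and 76.9 TPM. The poly(A)-binding protein gene pabpc1a had 1499 and 1665 TPM, against 476 and 417 TPM. By contrast, parn, the poly(A)-specific ribonuclease, had 77.4 and 83.1 TPM, against 453 and 388 TPM, and the cleavage factor gene cpsf1 had 4.47 and 1.71 TPM, against 30.1 and 27.4 TPM. In the m6A and microRNA list, 9 of 24 were higher, 5 lower and 10 not called, beside 30.4% higher and 23.7% lower over all genes tested. The m6A readers ythdf1, ythdf2 and ythdf3 were all lower relative to the median gene. Of these, ythdf2 had 21.1 and 10.7 TPM, against 112 and 93.3 TPM, while the writer subunit wtap had 190 and 214 TPM, against 66.1 and 55.9 TPM. Not all readers and writers divided this way. The reader genes igf2bp1 and igf2bp2a lay above the median gene and the writer gene mettl14 below it, none of them called. Without either Ribo-Zero library, no gene was called lower in this list, nor in those of cell cycle, egg coat, activator, splicing and proteasome genes, and 1 was in the germ plasm and tail lists.

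The remaining lists are read against the 23.7% lower and 30.4% higher over all genes tested. Genes for mitochondrial ribosomal proteins, at a median of -0.94, had 33 of 70 lower and 12 higher. Among genes with cytoplasmic ribosomal protein names 1 of 83 was lower. The mitochondrial gene mrps7 had 2.33 and 1.37 TPM in poly(A), against 34.4 and 32.0 TPM in Ribo-Zero, while mrpl38 had 235 and 260 TPM, against 51.8 and 49.7 TPM. Genes with znf names, mostly zinc finger factors, had 68 of 146 lower and 11 higher, with a median of -1.03. Genes with psm names, mostly of the proteasome, had 15 of 44 lower and 11 higher. Respiratory chain genes had 27 of 80 lower and 28 higher, and translation factors 20 of 68 lower and 21 higher. Chaperones had 20 of 67 lower and 17 higher, and cytoskeletal genes 8 of 24 lower and 10 higher. Genes of DNA replication had 11 of 44 lower and 25 higher. In that list, subunits of the MCM helicase split, with mcm7 at 595 and 554 TPM in poly(A), against 184 and 152 TPM in Ribo-Zero, and mcm2 at 17.3 and 5.74 TPM, against 156 and 149 TPM. Among translation factors, the helicase gene eif4a1a had 774 and 976 TPM, against 272 and 266 TPM, and the initiation factor gene eif2s1b had 5.91 and 4.05 TPM, against 77.0 and 76.2 TPM. Without the Ribo-Zero library of 0 hpf or of 1 hpf, 2 lower calls were left among mitochondrial ribosomal proteins, respiratory chain genes and DNA replication genes each, 1 among znf genes and translation factors each, 3 or 1 among chaperones and 1 or 2 among cytoskeletal genes. Higher calls then numbered 16 or 18 in the respiratory chain, 16 or 15 in DNA replication, 14 or 15 among translation factors, 9 among chaperones, 6 or 7 among cytoskeletal genes, 7 among mitochondrial ribosomal proteins and 3 among znf genes.

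Pairs of genes with closely related names were compared. Among 786 pairs of names that differ only by a final a or b, which in zebrafish often but not always mark duplicates of a gene, the mean relative differences had a Pearson correlation of 0.281 and a Spearman correlation of 0.239, given as a description. Both were well captured in 44 pairs and 1 of them in 149 pairs, where 14.2% of all genes tested were well captured. In 21 pairs 1 gene was well captured and the other had a mean relative difference of -1 or lower. The RNA processing gene acin1a had 629 and 711 TPM in poly(A), against 91.5 and 74.3 TPM in Ribo-Zero, while acin1b had 42.1 and 13.5 TPM, against 288 and 247 TPM. In this pair 1 gene had more and the other fewer TPM in poly(A) than in Ribo-Zero, at both hours. Similarly, snx1a, a sorting nexin gene, had 226 and 223 TPM, against 86.2 and 75.2 TPM, while snx1b had a relative difference of -0.99 and -2.85 at 0 and 1 hpf. These pairs were chosen after their values were seen.

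Between 0 and 1 hpf the levels of the genes tested changed more in poly(A) than in Ribo-Zero. The genes were kept by their Ribo-Zero level alone, so poly(A) levels could lie near 0. Median levels were 11.8 and 12.8 TPM in poly(A) at 0 and 1 hpf, against 33.4 and 29.1 TPM in Ribo-Zero. In poly(A), 39 and 47 of the genes were listed at 0. How much of the wider change in poly(A) comes from this filter was not tested. The log2 change from 0 to 1 hpf had an interquartile range over the genes tested of 1.01 in poly(A), against 0.241 in Ribo-Zero. A change at least 1 away from the median change was found for 2390 genes in poly(A) and 73 in Ribo-Zero. With 1 library per hour and protocol, a change with age and a difference between libraries cannot be told apart. The beta-catenin gene ctnnb1 and the hnRNP gene hnrnpub, given above, had several times more poly(A) TPM at 1 than at 0 hpf, while their Ribo-Zero levels were slightly lower. A relative difference of at least 1 at 0 hpf and of -1 or lower at 1 hpf was found for 17 genes. Among them were idh3a, which encodes a subunit of a citric acid cycle enzyme, with 64.9 and 5.39 TPM in poly(A), against 52.3 and 47.1 TPM in Ribo-Zero, sybu, which takes part in dorsal determination, with 109 and 20.8 TPM, against 172 and 153 TPM, and fam212ab, with 215 and 36.0 TPM, against 314 and 291 TPM. The opposite was found for 11 genes, most of them CT583728 loci whose Ribo-Zero level was near 0 at 1 hpf, and among the others rap2aa, a small GTPase gene, had 2.35 and 15.4 TPM in poly(A), against 15.6 and 16.0 TPM in Ribo-Zero.

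**Figure D3:**
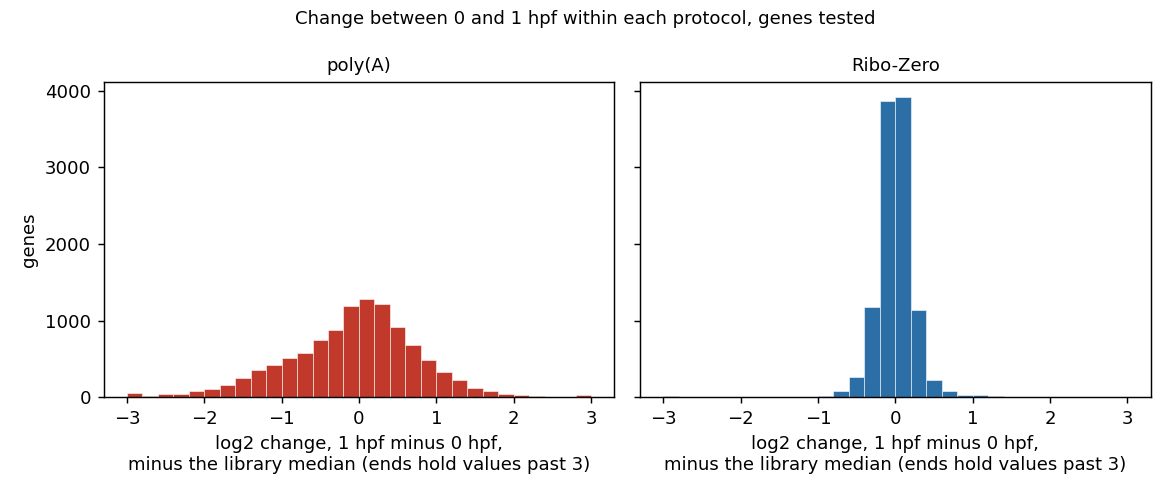
Number of genes tested (y axis) by their log2 change from 0 to 1 hpf minus the median change (x axis), in poly(A) (left) and Ribo-Zero (right), with values past 3 in the end bars. The poly(A) changes spread over an interquartile range of 1.01, against 0.241 in Ribo-Zero, among genes kept by their Ribo-Zero level alone.

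The wild-type libraries of 2 to 8 hpf, which played no part in choosing the genes, give the same measure at later hours. Over all genes tested the median difference between poly(A) and Ribo-Zero was -0.01 at 2 hpf, 0.17 at 3 hpf and between 0.34 and 0.51 from 4 to 8 hpf. The relative difference had an interquartile range of 2.05 and 2.63 at 0 and 1 hpf, and of 1.67 and 1.07 at 2 and 3 hpf, so that the spread between genes was smaller at the later hours. The members of the fold classes were chosen for extreme values at 0 and 1 hpf, and values at other hours are therefore given as a description. Well captured genes had median relative differences of 3.06, 1.45, 0.64 and 0.45 at 0, 2, 3 and 8 hpf.

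After 2 hpf the 55 poorly captured named mRNAs and the Metazoa_SRP and histone RNAs took different courses. The 55 mRNAs had median relative differences of -2.29, -2.46, -1.46, -0.70 and 0.29 at 0, 2, 3, 4 and 8 hpf, and the number of them at -2 or lower was 55, 38, 19 and 2 at 1, 2, 3 and 4 hpf. Their median level in poly(A) was 1.26 TPM at 0 hpf and 11.9 TPM at 4 hpf, against 21.1 TPM and 14.9 TPM in Ribo-Zero at the same hours. For exosc4 the poly(A) level was 22.5 TPM at 3 hpf and 48.2 TPM at 4 hpf, against 80.8 and 51.8 TPM in Ribo-Zero. For xbp1 it was, from 2 to 4 hpf, 24.2, 92.7 and 188 TPM, against 322, 317 and 258 TPM, and for eno3 33.1, 61.1 and 177 TPM, against 513, 490 and 438 TPM. In these 3 genes the poly(A) level was higher at each hour from 2 to 4 hpf than at the hour before, while the Ribo-Zero level was not. From 0 to 1 hpf the poly(A) level was lower at the later hour in exosc4 and xbp1. Replication-dependent histones stayed low, with median relative differences of -6.21, -5.81 and -6.82 at 2, 4 and 8 hpf, and so did the Metazoa_SRP loci, at -8.86, -7.97 and -9.10. Mitochondrially encoded mRNAs stayed high as a median, at 2.99, 1.20 and 2.00 at these hours, while mt-nd6 lay at -0.5, -1.6 and -1.5. Mitochondrial ribosomal protein genes lay at -0.96, 0.23 and 0.92, and cell cycle regulators at -0.01, 0.11 and -0.08.

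**Figure D4:**
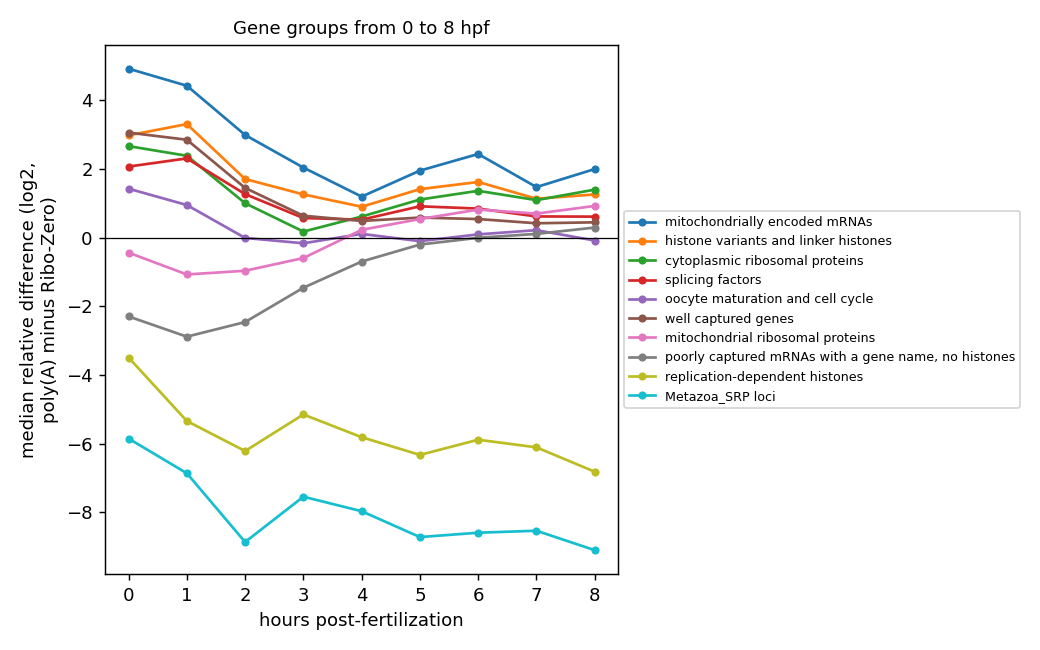
Median relative difference (log2, poly(A) minus Ribo-Zero, y axis) of 10 gene groups at each hour from 0 to 8 hpf (x axis), with 1 library per protocol and hour. The line of poorly captured named mRNAs climbs to the level of the median gene by 6 hpf, while those of the replication-dependent histones and the Metazoa_SRP loci stay below -3.

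In the Ribo-Zero libraries alone, the level of the well captured genes changed by a median of -0.80 on the log2 scale between 2 and 6 hpf (quartiles -1.99 and -0.01), and that of the 55 poorly captured named mRNAs by -1.46 (quartiles -1.87 and -0.68), beside -1.33 over all genes tested (quartiles -2.36 and -0.41). Cytoplasmic ribosomal protein genes changed by 0.81 and replication-dependent histones by 1.37.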

How the data were processed

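RNA of wild-type zebrafish embryos was sequenced by the authors after poly(A) capture or after Ribo-Zero depletion. Per the labels and the submitters' processing notes, bcl2fastq 2.18, STAR 2.7.3a and RSEM were used with the danRer11 genome, and the deposited values are TPM per gene, rounded to 2 decimals. TPM sum to the same total in each library, so a few abundant RNAs lower the share of all others, and the number of reads is not known from them. No deposited per-sample column of the wild-type libraries was left unmapped (0 such columns). The 12 alpha-amanitin libraries were not mapped, as they were not used.

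Values were taken as log2(TPM + 0.1), and a fold change on that scale understates the change of low genes. Genes with a mean Ribo-Zero TPM of at least 5 at 0 and 1 hpf were tested with limma 3.58.1 in R 4.3.3 (protocol and hour as factors, two-sided, with a trended prior variance and p-values adjusted by Benjamini-Hochberg over all genes tested at a threshold of 0.05), as deposited and after each library was centred on its median gene. P-values measure the spread between these libraries, of which hours stand in for replicates. As deposited, that spread was the one shared over genes of similar level and not that of the single gene. The steps were tested on simulated data with few genes changed, independent noise in each library and the same noise in both protocols. Those data had no change between hours. They therefore cannot show how the calls fare where hours stand in for replicates. Later hours were compared without a test. Alternatives varied the pseudocount, the filter, the hour term and the libraries used. Fits that left out a library had no hour term. Python 3.11.15 and pandas 2.3.3 were used for the summaries.

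Named genes were the 12 lowest and 12 highest called genes with a gene name that passed the fold rule and had at least 20 TPM, up to 5 members of each list, and the 5 most abundant genes of each protocol. Other named genes were chosen after their values were seen. A gene that the rule took is not reported here. The members and lists were chosen with earlier results of these data known. Differences were taken within the hour, so the libraries were paired by hour, and the fit without the hour term was an alternative.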

Additional observations from a re-analysis of the deposited data

Results flagged for a closer look

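The median relative difference of 2 gene lists had opposite signs at the 2 hours, and the difference between the hours was not tested. For nuclear-encoded respiratory chain genes it was 0.32 at 0 hpf and -0.28 at 1 hpf. For cytoskeletal genes it was -0.052 at 0 hpf and 0.20 at 1 hpf.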

How the results depend on the processing

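With genes of at least 20 TPM, 4028 genes were lower in poly(A) as deposited, and with 2 hpf added 4307. With no filter, limma called 0 lower and 0 higher as deposited of 35117 (6871 and 1391 at an unadjusted p under 0.05), and 4924 lower and 18355 higher relative to the median gene. Only 11919 to 14395 of the 35117 genes reached 1 TPM in a library, so the median gene without a filter lay below 1 TPM. The unfiltered counts relative to it are therefore not comparable with the others. Leaving out each library in turn gave 4046 to 7684 lower and 863 to 2198 higher as deposited, and 275 to 4627 lower and 1895 to 4785 higher relative to the median gene. At 1 hpf alone 1456 genes were poorly captured, and with a relative difference of 1 there were 1359 poorly and 2781 well captured. The direction turned for idh3a (0.10 with a filter of 1 TPM), and over the refits that left out a library idh3a ranged between -1.90 and 1.79, fam212ab between -1.79 and 0.91, sybu between -1.69 and 0.82, and AC024175.4 between -0.13 and 2.19, each turning on a poly(A) library. The cause was not tested. Over 69 genes at the extremes or most abundant, direction and call were kept in 603 refits with other settings and in 263 that left out a library, and changed in 12 and 13. These do not include most list members named above, whose lower calls, outside the histone and Metazoa_SRP lists, were mostly lost without a Ribo-Zero library. Leaving out loci that share every value with another, an alternative chosen after seeing the data, gave 2606 lower and 3292 higher relative to the median gene. Without the hour term, which pairs the libraries by hour, 2278 were lower and 3193 higher relative to the median gene. The number of reads is unknown, so the precision of low levels is too.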
